A study of Mus musculus with 12 samples.

Results

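The genes followed here encode 8 transcription factors known for their induction in injured sensory neurons: Atf3, Jun, Sox11, Stat3, Smad1, Myc, Cebpd and Nfil3. They were chosen by symbol as known injury-response regulators, and all 8 were found among the 44345 genes of the deposited RNA tables and passed the filter on low counts, as did 16819 genes in all. RNA came from the L4-L6 dorsal root ganglia, which house the sensory neurons, of C57BL/6 animals of 6 to 8 weeks, taken 24 h after dorsal column axotomy (DCA), in which the central branch of the sensory axon is cut inside the spinal cord. One group was given MS275 (also called entinostat, which blocks class I histone deacetylases) at 12 mg/kg into the peritoneum, and the other was given the vehicle of Tween80, PEG300 and DMSO. Both were injected at the time of injury and once more 2 h before collection. Each group had 3 RNA libraries, and each library pooled the ganglia of 2 mice. For open chromatin (ATAC-seq, which reads DNA accessible to a transposase) 3 mice per group were used, and 1 combined list of open regions per group was analysed. Every animal was injured, so the values below compare drug with vehicle after injury and hold no measure of induction by injury itself.

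In a sensory neuron whose peripheral axon is cut, kinases of the DLK and JNK pathway phosphorylate Jun and switch on Atf3, cytokines of the gp130 family activate Stat3, and bone morphogenetic proteins activate Smad1. These factors bind near growth genes and are widely used as markers of the regenerative state. Cutting the central branch is known to set off this programme far less than cutting the peripheral branch does. Atf3, Jun, Cebpd and Nfil3 carry basic leucine zippers, Sox11 bends DNA with a high mobility group box, and Myc works as a dimer with Max.

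In the RefSeq annotation of GRCm38.p6, the assembly of mm10, Atf3 spans chr1:191170296-191183333, Jun chr4:95049036-95052222, Sox11 chr12:27334268-27342718 and Stat3 chr11:100886806-100939594. Smad1 spans chr8:79338395-79399428, Nfil3 chr13:52967209-52982878, Myc chr15:61985341-61990361 and Cebpd chr16:15887286-15889545, and all but the last 2 are known from the promoter table to lie on the minus strand. The start sites used below come from that table, and the one of Nfil3 lies 1839 bp and that of Stat3 54 bp inside the upstream end of the span.

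Promoter sequence is shown for the 3 genes whose RefSeq start windows held a searched motif and whose start sites lay inside open regions of both lists. Atf3 met this rule only through a pattern added after the sequences had been read. Each run is 300 bases on the minus strand of GRCm38.p6, 5′ to 3′, from 250 bases before the start site to 50 after it, with matched motifs in capitals. The Jun window is chr4:95052173-95052472, the Sox11 window is chr12:27342669-27342968 and the Atf3 window is chr1:191183284-191183583.
Jun: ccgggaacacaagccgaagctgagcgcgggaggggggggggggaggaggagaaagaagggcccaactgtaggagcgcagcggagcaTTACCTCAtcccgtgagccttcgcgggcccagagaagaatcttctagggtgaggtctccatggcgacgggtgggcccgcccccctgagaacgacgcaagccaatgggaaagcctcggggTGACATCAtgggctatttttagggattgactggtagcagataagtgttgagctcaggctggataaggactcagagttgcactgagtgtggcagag
Sox11: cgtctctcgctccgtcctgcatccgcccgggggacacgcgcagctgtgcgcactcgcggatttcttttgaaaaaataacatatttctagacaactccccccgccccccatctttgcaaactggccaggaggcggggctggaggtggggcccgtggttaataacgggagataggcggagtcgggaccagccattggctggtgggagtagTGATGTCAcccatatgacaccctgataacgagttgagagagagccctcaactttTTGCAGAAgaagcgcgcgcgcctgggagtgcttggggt
Atf3: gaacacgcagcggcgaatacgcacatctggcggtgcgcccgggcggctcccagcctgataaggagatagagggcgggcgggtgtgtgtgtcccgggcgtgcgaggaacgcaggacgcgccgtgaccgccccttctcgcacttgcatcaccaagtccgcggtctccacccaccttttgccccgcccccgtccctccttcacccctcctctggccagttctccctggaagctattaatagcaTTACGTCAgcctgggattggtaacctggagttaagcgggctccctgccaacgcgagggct

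Counting the start site as 0, the Jun window held TGACATCA at -45 and the Sox11 window held TGATGTCA at -42. Both match the pattern TGACNTCA, read on either strand, which ATF and CREB proteins and Jun can bind, and 8.83% of 32851 RefSeq start windows of the same length held such a match. The Atf3 window held TTACGTCA at -10 and the Jun window TTACCTCA at -164. These match TTACNTCA, a related pattern that was added after the sequences had been read, and 3.30% of all windows held one. Sox11 also held TTGCAGAA at 12, a match to the C/EBP pattern TTGCNNAA (10.8% of windows). No match to the AP-1 pattern TGANTCA, the STAT pattern TTCNNNGAA, the E-box CACGTG, the D-box TTACNTAA, the Sox pattern ACAANGG or the Smad pattern GTCTAGAC was found in the 6 windows available, those of Atf3, Jun, Sox11, Stat3, Smad1 and Nfil3. Patterns were searched on both strands, and TGACNTCA and TTACNTCA share their last letters without overlapping each other at these sites. A match describes letters in a window and not an occupied site.

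RNA depth was 34992533 to 60370523 reads in genes per library. Levels are in CPM, counts scaled to library size with TMM factors. Summed sensory neuron markers (13 genes such as Tubb3, Prph and Isl1) stood at 24106 to 25219 CPM under vehicle and 25320 to 28065 CPM under MS275. These sums did not overlap between the groups, and 1 of the 13 genes passed the test described below, as higher. Myelinating Schwann cell markers stood at 5063 to 6219 and 5580 to 6228 CPM, so RNA of both cell types was present. Markers of other sources differed by library or by group. The 12 skeletal muscle markers summed to 17.2, 8.99 and 67.5 CPM in vehicle replicates 1, 2 and 3. In MS275 replicates 1, 2 and 3 they summed to 762, 102 and 113 CPM. All 12 had a log2 fold change above 0, and 11 passed the test described below as higher. The muscle sum did not overlap between the groups, so a covariate made from it cannot be fully told apart from treatment. The 12 neutrophil markers summed to 78.4, 71.1 and 47.0 CPM under vehicle and to 295, 53.2 and 86.8 CPM under MS275. All 12 had a log2 fold change above 0 (median 1.13), and 1 of the 12 passed. The 3 erythroid markers found summed to 63.3, 51.1 and 63.8 CPM under vehicle and to 142, 31.5 and 48.7 CPM under MS275, and 0 passed. Of 8 satellite glia markers, 2 passed as higher and 2 as lower. No marker of the muscle, neutrophil or erythroid lists was at 0 in every library.

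None of the 8 transcription factors was called higher or lower with MS275. In edgeR's quasi-likelihood test, with Benjamini-Hochberg adjustment over all 16819 genes and a threshold of 0.05, 0 of 8 passed, while 11.0% of all genes tested did (5.10% higher and 5.89% lower). The smallest adjusted p among them was 0.127, for Nfil3, which was also the single member with an unadjusted p under 0.05. DESeq2 and limma voom likewise called 0 of 8. The median log2 fold change of the 8 was 0.0039 and that over all genes tested 0.0020, with 4 members above 0 and 4 below. The libraries of the groups did not overlap for 1 of the 8 (12.5%), against 33.8% of all genes. In bulk tissue fewer cells of a type and less RNA per cell cannot be told apart, so these are levels of the whole ganglion.

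Atf3 encodes a stress-induced bZIP factor that is nearly absent from intact sensory neurons. Its libraries read 47.8, 52.3 and 41.5 CPM under vehicle replicates 1, 2 and 3 and 42.5, 62.4 and 37.4 CPM in MS275 replicates 1, 2 and 3. MS275 held both the highest and the lowest of the 6 libraries, and the groups overlapped. Group means were 47.2 ± 5.44 and 47.4 ± 13.2 CPM (SD, n = 3), with a log2 fold change of 0.011 (SE 0.16; 95% interval -0.36 to 0.38, that is 0.781 to 1.30-fold). The edgeR adjusted p was 0.973. Neither sign nor size was stable: the log2 fold change was -0.24 without MS275 replicate 2 (SE 0.09, edgeR adjusted p = 0.12), -0.075 without vehicle replicate 3 and 0.16 without MS275 replicate 3. With the muscle sum as a covariate it was 0.35 (SE 0.22, edgeR adjusted p = 0.525).

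Jun, the AP-1 subunit that JNK phosphorylates, stood at 184, 199 and 191 CPM under vehicle and at 193, 242 and 190 CPM under MS275. MS275 replicate 2 lay above all other libraries and the rest fell within the vehicle range. The log2 fold change was 0.12 (SE 0.09; 95% interval -0.07 to 0.32) with an edgeR adjusted p of 0.371. Leaving out 1 library gave 0.0068 (without MS275 replicate 2) to 0.19 (without MS275 replicate 3), and the muscle covariate gave 0.25 (edgeR adjusted p = 0.415).

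Sox11, a SoxC factor needed for axon regrowth in sensory neurons, was the least counted member, with 171 to 304 reads per library. It stood at 3.89, 4.39 and 4.47 CPM under vehicle and at 3.76, 5.53 and 4.95 CPM under MS275. Replicates 2 and 3 of MS275 lay above the vehicle range and replicate 1 below it. The log2 fold change was 0.16 (SE 0.15; 95% interval -0.18 to 0.50; edgeR adjusted p = 0.526). It was 0.03 without MS275 replicate 2, 0.10 without vehicle replicate 1, 0.31 without MS275 replicate 1 and 0.43 with the muscle sum as a covariate (edgeR adjusted p = 0.429).

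Stat3 carries gp130 signals to the nucleus and was counted 13900 to 27238 times per library. It read 420, 446 and 427 CPM under vehicle and 407, 462 and 403 CPM under MS275. As for Atf3, the highest and the lowest library were both of MS275, and the highest was again replicate 2. The log2 fold change was -0.024 (SE 0.06; 95% interval -0.15 to 0.10, or 0.901 to 1.07-fold; edgeR adjusted p = 0.815). Smad1, the mediator of BMP signals, had the tightest values of the 8, at 52.0, 50.6 and 50.6 CPM under vehicle and 52.0, 51.0 and 49.8 CPM under MS275. Its coefficient of variation was 1.57% in vehicle and 2.18% with MS275. The log2 fold change was -0.0029 (SE 0.04), and its 95% interval of -0.10 to 0.09 allows at most 0.935 to 1.06-fold.

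Myc, which drives growth and ribosome production, stood at 11.8, 12.3 and 11.3 CPM under vehicle and at 11.5, 11.3 and 12.6 CPM under MS275. The groups covered nearly the same range, and the log2 fold change was -0.0035 (SE 0.08; 95% interval -0.18 to 0.17; edgeR adjusted p = 0.981). Cebpd, a C/EBP factor of acute inflammation, stood at 16.1, 16.99 and 13.0 CPM under vehicle and at 15.4, 11.8 and 12.9 CPM under MS275. The groups overlapped, and each held a wide range. Its log2 fold change of -0.20 (SE 0.12; 95% interval -0.47 to 0.07; edgeR adjusted p = 0.312) was the lowest of the 8, and it moved both ways with the library left out. It was -0.32 without MS275 replicate 1 (edgeR adjusted p = 0.092) and -0.31 without vehicle replicate 3, but -0.11 without MS275 replicate 2 (edgeR adjusted p = 0.583) and -0.12 without vehicle replicate 2. The annotated span of Cebpd overlaps Spidr and that of Stat3 overlaps Gm46295. No source used here states how strand was treated in counting, so both counts are uncertain to that extent.

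Nfil3, a repressor of the bZIP class that has been reported to dampen regeneration genes, had the largest difference of the 8. It stood at 8.86, 9.94 and 9.51 CPM under vehicle and at 13.3, 11.0 and 10.02 CPM under MS275. Every MS275 library lay above every vehicle library, though MS275 replicate 3 exceeded vehicle replicate 2 by little. Group means were 9.44 ± 0.55 and 11.4 ± 1.65 CPM (SD, n = 3), with a log2 fold change of 0.28 (SE 0.11; 95% interval 0.04 to 0.52) and an unadjusted p of 0.029 (edgeR adjusted p = 0.127). The library with the highest Nfil3, MS275 replicate 1, also held the highest muscle, neutrophil, erythroid, endothelial, macrophage and fibroblast marker sums. The log2 fold change was 0.16 without that library (edgeR adjusted p = 0.289). With the muscle sum as a covariate it was 0.08 (SE 0.16, edgeR adjusted p = 0.874). The muscle sum separated the groups, so that fit cannot set muscle RNA apart from treatment. The part of muscle, neutrophil or other such RNA in Nfil3 was not tested.

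**Figure D1:**
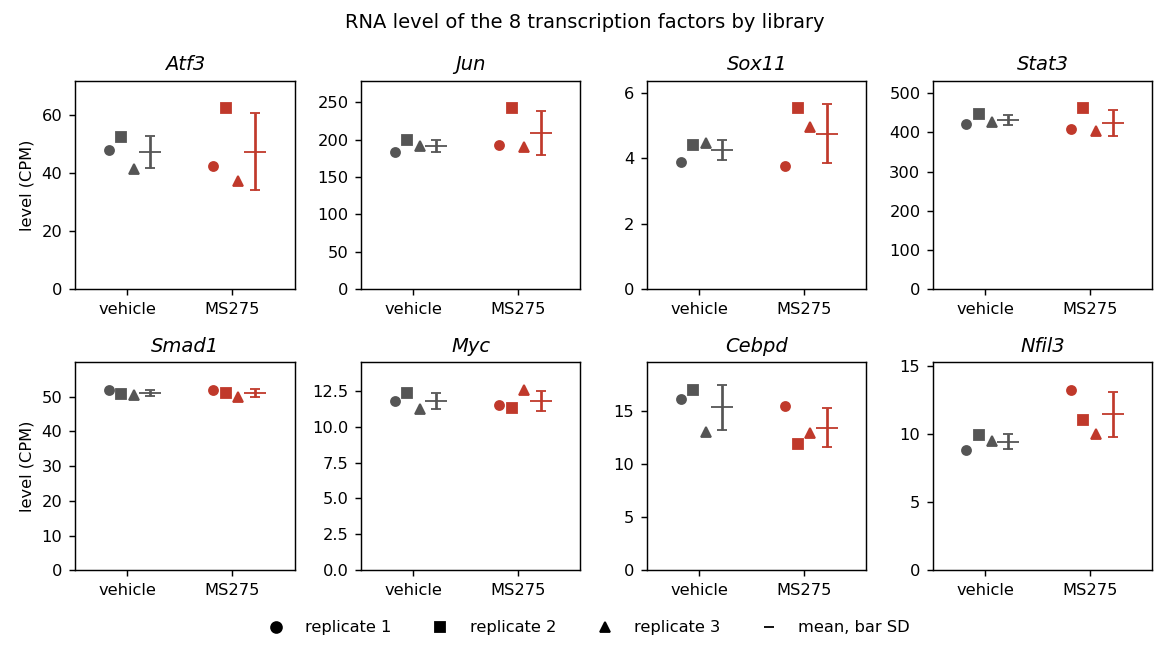
RNA level in CPM (linear axis from 0) of each transcription factor in each of 6 libraries; symbols mark replicate numbers, and the bar beside them is the mean with its SD (n = 3). MS275 replicate 2 (red squares) is the highest library for Atf3, Jun, Sox11 and Stat3, and Nfil3 is the one gene whose groups do not overlap.

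MS275 replicate 2 was the highest of all 6 libraries for 4 of the 8 genes, Atf3, Jun, Sox11 and Stat3. For the other 4 it was not, and for Myc and Cebpd it was the lowest MS275 library. The share of all genes highest in that library was not computed. Vehicle replicate 2 was the highest vehicle library for Atf3, Jun and Stat3, and also for Myc, Cebpd and Nfil3. The spread among MS275 libraries was wider than among vehicle libraries for 7 of the 8 genes, Cebpd apart. The coefficient of variation of Atf3 was 11.5% in vehicle and 27.9% with MS275, and that of Jun 4.02% and 14.1%. Compared as whole libraries, those of MS275 also differed more from one another. Their pairs scored 49.5, 17.3 and 20.1 in chi-square divided by its degrees of freedom, and the vehicle pairs 6.78, 7.31 and 8.26. How many of all genes had a wider spread under MS275 was not computed. The count of 7 is therefore not shown to be particular to these factors. Across 12 alternative settings (other scalings, tools and filters, the replicate number as a block, the muscle covariate and each library left out) 0 of 8 members passed in every one. Jun, Sox11 and Nfil3 stayed above 0 and Cebpd below 0 in all 12, while Atf3, Stat3, Smad1 and Myc changed sign in at least 1.

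**Figure D2:**
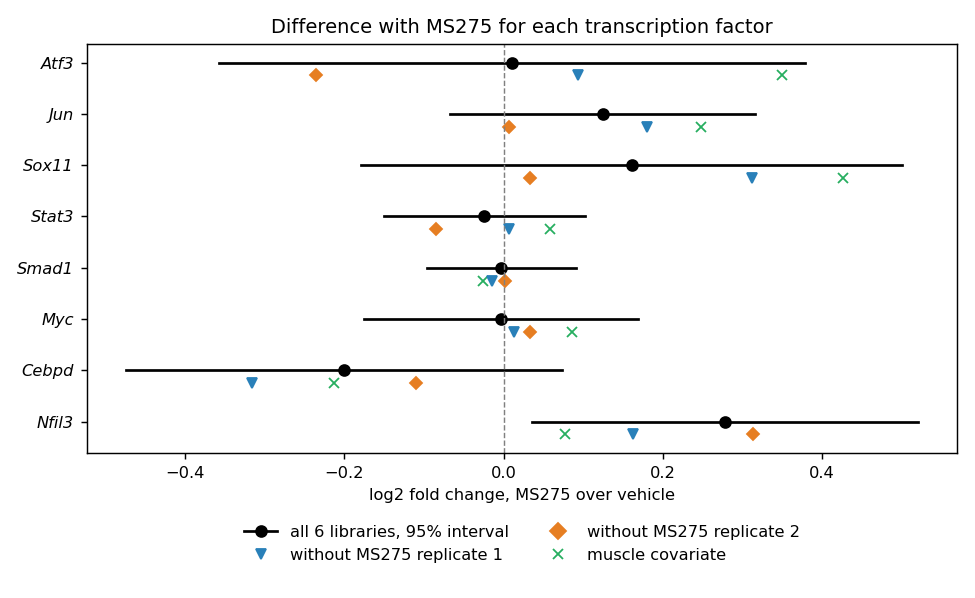
Log2 fold change of MS275 over vehicle for each transcription factor, with the 95% interval from edgeR (black), and below it the value without MS275 replicate 1, without MS275 replicate 2 and with the muscle sum as a covariate. The interval of Nfil3 alone lies above 0, before adjustment for the number of genes tested, and its value with the covariate is 0.08; Atf3 moves from 0.011 to -0.24 without MS275 replicate 2 and to 0.35 with the covariate.

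Genes whose pattern over the 6 libraries was most like that of each member were taken from 10078 genes of higher level by Pearson's r of log2 CPM. The nearest were Smim3 for Atf3 (r = 0.994), Serpinb1a for Jun (r = 0.998), Ppme1 for Sox11 (r = 0.998) and Tagln2 for Stat3 (r = 0.987). For Smad1 it was Srpk2 (r = 0.972), for Myc Cables2 (r = 0.993), for Cebpd D3Bwg0562e (r = 0.986) and for Nfil3 Afap1l1 (r = 0.990). The next were Wdr77, Hivep3, Bcl9l, Atf7, Cd47, Csf2ra, Ebpl and Rpl7l1 in the same order of members. None of these 16 genes passed in edgeR. The values describe 6 libraries that share depth and tissue makeup, and a search over so many genes returns high r on its own.

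Genes around these factors passed in both directions, and from here on rose and fell are used for genes that passed. Of 157 listed partners, upstream kinases, receptors and co-induced genes, 149 were tested; 13 rose and 16 fell (19.5%, where 11.0% of all genes passed), with a median log2 fold change of -0.0096. The lists are background knowledge chosen with earlier results of these data known, and no test of a list was made. Leaving out 1 library changed these counts: the number that passed was 6, 5 and 12 on leaving out vehicle replicate 1, 2 and 3 in turn, and 30, 36 and 16 on leaving out MS275 replicate 1, 2 and 3. Of the 29 genes, 5 passed in each of these 6 fits, namely Sox4, Sox18, Id1, Id3 and Cntfr, and the other 24 all missed the threshold without vehicle replicate 2. With the muscle covariate 1 passed, Sox4, while the log2 fold changes of 25 of the 29 stayed within 1.5 times and the SEs of the 29 rose by a median factor of 1.6. Cntfr, for example, was 0.31 without the covariate and 0.32 with it, and Mnt -0.26 and -0.25. The 4 that moved further were Smad2 (-0.082 with the covariate), Smurf1 (-0.15), Mxd1 (-0.71) and Nts (1.17). Medians of the log2 fold change were -0.043 for AP-1 and ATF partners, -0.016 for JNK and DLK kinases, 0.05 for gp130, JAK and STAT genes and -0.074 for BMP and Smad genes. For the Max network the median was -0.12, for Sox genes 0.14, for C/EBP and PAR bZIP genes -2.1e-05 and for injury-induced genes 0.084, beside 0.0020 over all genes tested.

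**Figure D3:**
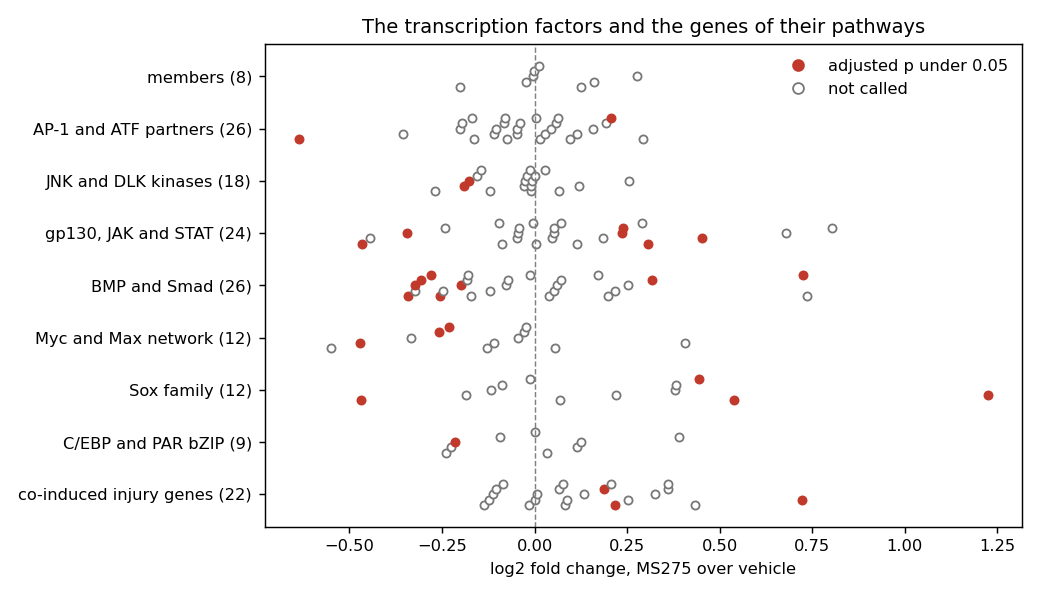
Log2 fold change of MS275 over vehicle for the 8 members and for each tested gene of 8 pathway lists (number tested in brackets); filled points have an edgeR adjusted p under 0.05, and points are spread vertically for legibility only. The members, all open, lie between -0.20 and 0.28, and Sox18 lies farthest to the right at 1.22.

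Among 26 tested AP-1 and ATF partners, 1 rose and 1 fell (7.69%, all genes 11.0%). Atf4, the factor of the integrated stress response, rose from 195, 205 and 199 CPM to 231, 234 and 226 CPM (log2 fold change 0.21, SE 0.04; edgeR adjusted p = 0.013). Fosl2, a partner of Jun, fell from 28.3, 30.8 and 24.2 CPM to 19.2, 20.6 and 13.6 CPM (-0.64, SE 0.14; edgeR adjusted p = 0.024). Fos, Junb and Jund had log2 fold changes of 0.0051, -0.08 and 0.09, none of them called. Of 18 genes of the JNK and DLK pathway, 0 rose and 2 fell (11.1%, all genes 11.0%). The genes that fell were the JNK kinase Map2k7 (-0.19, SE 0.04) and the scaffold gene Spag9 (-0.18, SE 0.04). Map3k12, which encodes DLK, stood at 92.1, 95.3 and 95.6 CPM under vehicle and 93.3, 94.8 and 93.1 CPM under MS275. Neither the kinase that starts this pathway in axons nor Mapk8, which encodes JNK1 (-0.02), was called. Map3k13, another kinase gene of this list, stood at 17.1, 17.1 and 15.1 CPM under vehicle and 12.9, 14.3 and 13.7 CPM under MS275. Its log2 fold change of -0.27 (SE 0.08) was the lowest of the list. The groups did not overlap for it, and it missed the threshold (edgeR adjusted p = 0.055).

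Around Stat3, 4 of 24 tested genes rose and 2 fell (25%, all genes 11.0%). Those that rose were Cntfr, the receptor subunit for ciliary neurotrophic factor (63.7 ± 1.87 to 78.9 ± 3.14 CPM, n = 3; 0.31, SE 0.05), Osmr (0.24), Stat2 (0.24) and Socs2, a feedback inhibitor of cytokine receptors (0.45, SE 0.08). Those that fell were the kinase gene Jak2 (32.4 ± 1.20 to 23.4 ± 3.30 CPM, n = 3; -0.47, SE 0.09) and Pias3, an inhibitor of Stat3 (-0.35, SE 0.07). Socs3, a common readout of active Stat3, stood at 25.5, 31.5 and 24.95 CPM under vehicle and 23.6, 26.7 and 18.8 CPM under MS275 and was not called (-0.24, edgeR adjusted p = 0.248). The ligand genes Il6 and Lif lay between 0.252 and 1.30 CPM in every library and were not called. Il6 had a log2 fold change of 0.05. Lif, at 10 to 62 reads per library, had the highest of this list, 0.80 (SE 0.43, edgeR adjusted p = 0.250), and its groups overlapped.

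Around Smad1, 2 of 26 genes rose and 6 fell (30.8%, all genes 11.0%). Id1 and Id3, which BMP signals induce, rose: Id1 from 12.5, 11.6 and 12.1 CPM to 22.9, 18.3 and 18.6 CPM (0.72, SE 0.09; edgeR adjusted p = 0.0036), and Id3 by 0.32 (SE 0.05). The genes that fell encode the receptor Acvr2a (-0.32), the Smads Smad5 (-0.28) and Smad2 (-0.20), the ubiquitin ligases Smurf2 (-0.31) and Smurf1 (-0.26), and the BMP antagonist Nog (-0.34). Smad1 itself, at a fold of 0.998, stood among called relatives in both directions. Id1 is also strong in endothelium, whose 9 markers summed to 136 to 152 CPM under vehicle and 168 to 196 CPM under MS275. All 9 had a log2 fold change above 0, 4 of them passed, and none was at 0 in every library. The part of endothelial RNA in Id1 was not tested.

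In the Max network, to which Myc belongs, 0 of 12 tested genes rose and 3 fell (25%, all genes 11.0%). These were Mnt (57.3 ± 0.37 to 48.0 ± 1.56 CPM, n = 3; -0.26, SE 0.04), Mxd1 (-0.47, SE 0.12) and Mga (-0.23, SE 0.06), whose products compete with Myc for Max. Max had a log2 fold change of -0.03, and Mycn one of -0.33 without being called (edgeR adjusted p = 0.107). Of 12 tested Sox genes, 3 rose and 1 fell (33.3%, all genes 11.0%). Sox4, the SoxC relative of Sox11, rose from 26.99, 27.9 and 24.4 CPM to 38.2, 37.7 and 39.6 CPM (0.54, SE 0.06; edgeR adjusted p = 0.0023), and the groups were far apart. It passed in all 12 alternatives, with 0.64 (edgeR adjusted p = 0.041) under the muscle covariate. Sox18 (1.22, SE 0.12) and Sox17 (0.44, SE 0.10), which mark endothelium, rose with the endothelial sum given above, and Sox6 fell (-0.47, SE 0.11). The share of vessel RNA in the former 2 was not tested.

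Of 9 genes of the C/EBP and PAR bZIP families, the relatives of Cebpd and Nfil3, 0 rose and 1 fell (11.1%, all genes 11.0%). The gene that fell was Cebpz (-0.22, SE 0.05), which despite its name is not a bZIP factor. Cebpb stood at 11.1, 8.99 and 5.70 CPM under vehicle and 10.2, 4.24 and 7.501 CPM under MS275, with wide overlap. Of 22 tested genes known to rise together with these factors after nerve injury, 3 rose and 0 fell (13.6%, all genes 11.0%). The genes that rose were Lgals1 (0.22, SE 0.05), the tubulin gene Tubb2b (0.19, SE 0.04) and the neuropeptide gene Nts (0.72, SE 0.20). Nts read 6.30, 5.59 and 4.69 CPM under vehicle and 7.17, 8.04 and 12.4 CPM under MS275, and without MS275 replicate 3 it was 0.46 (edgeR adjusted p = 0.088). Nts also missed the threshold with limma voom (adjusted p = 0.061), as did Osmr (0.053) and Smad2 (0.051). With the replicate number as a block, Nts (edgeR adjusted p = 0.060) and Nog (0.054) missed it. The neuropeptide gene Gal (14.6 ± 0.76 and 18.3 ± 2.20 CPM, n = 3; 0.33, edgeR adjusted p = 0.054) and the growth cone gene Gap43 (0.21, edgeR adjusted p = 0.089) had groups that did not overlap and missed the threshold. Sprr1a, a growth-associated gene of injured neurons, stood at 2.82, 4.59 and 2.17 CPM under vehicle and 1.46, 2.71 and 8.60 CPM under MS275.

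Open chromatin was found at the start of all 8 genes under both treatments. A region lay within 1000 bp of the start of 8 of 8 members in the vehicle list, against 88.9% of 14936 tested genes with a RefSeq position, and of 8 of 8 in the MS275 list, against 87.9%. For Myc and Cebpd, whose strand was not in the tables used, either end of the gene counted. Coordinates are mm10, and fold enrichment is the value of the authors' peak caller. The lists were called separately, so folds and widths in the 2 lists are given side by side and not tested.

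The Atf3 region ran from 191182346 to 191184006 on chromosome 1 in the vehicle list (1661 bp, fold 4.38) and from 191182439 to 191183959 in the MS275 list (1521 bp, fold 4.76). Its summit lay 173 and 162 bp before the start site, over the promoter printed above. The Jun region was 1829 bp with a fold of 5.69 under vehicle and 1767 bp with a fold of 5.62 under MS275, and its summits lay 140 and 151 bp before the start. Jun, a gene without introns, also held smaller regions inside its single exon in both lists. The Sox11 region was 1942 bp (fold 3.25) and 1617 bp (fold 2.88), with summits 42 and 68 bp before the start, the first of them at the TGATGTCA match.

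Stat3 had the highest fold of the 8 in each list, 6.93 under vehicle and 6.66 under MS275, in regions of 1471 and 1462 bp on chromosome 11 with summits 23 and 13 bp before the start. The Smad1 region was 1763 bp (fold 5.64) and 1392 bp (fold 5.10), and that of Nfil3 1357 bp (fold 5.30) and 1705 bp (fold 3.99). At Myc the region of 1950 bp in the vehicle list (fold 2.81) met 2 regions in the MS275 list, one of 1183 bp (fold 3.87) and one of 253 bp. The Cebpd region was 1606 bp (fold 4.71) and 1395 bp (fold 5.45). A second region beside Cebpd, on chromosome 16 from 15885496 to 15885696, had the same bounds in both lists.

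**Figure D4:**
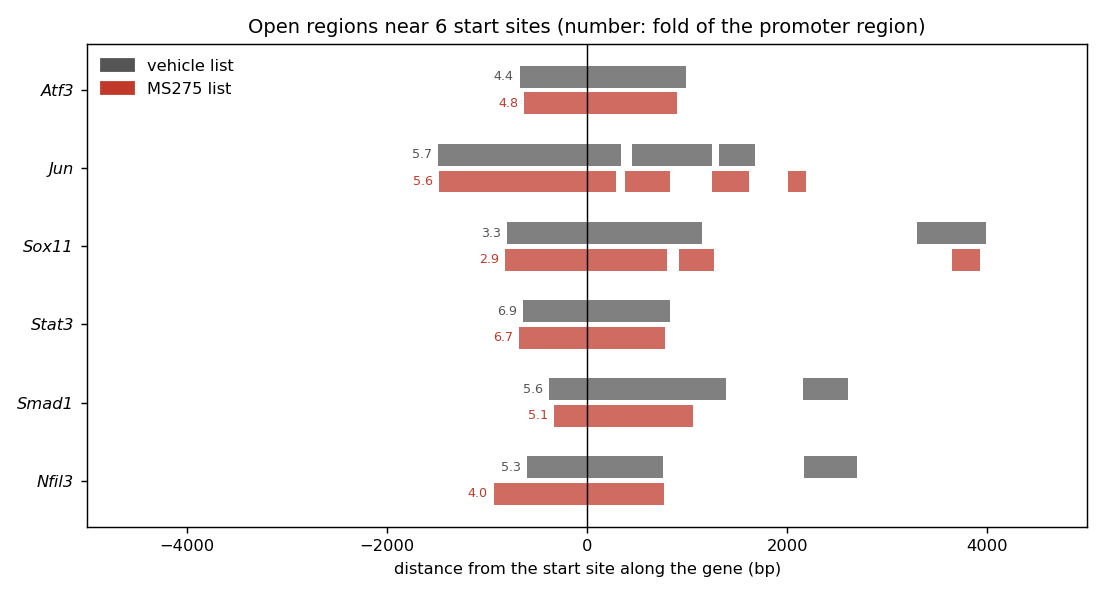
Open regions within 5000 bp of the start site of the 6 members whose strand is known, drawn to scale along each gene with transcription to the right; vehicle list in grey, MS275 list in red, and the number is the fold enrichment given by the authors' caller. Each gene has a region across its start site in both lists, 1357 to 1942 bp wide under vehicle and 1392 to 1767 bp under MS275.

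The regions at these starts were wide. In the vehicle list 7 of 8 were wider than the upper quartile of promoter regions of all tested genes (1421 bp, median 1124 bp), Nfil3 being the exception, and in the MS275 list 7 of 8 were wider than its upper quartile (1334 bp, median 1057 bp), Myc being the exception. Fold enrichment was less distinct: 4 of 8 under vehicle and 3 of 8 under MS275 exceeded the upper quartile of 5.01 and 5.19, and the rest lay between the quartiles. Bases under regions summed to 92.2 Mb in the vehicle list and 80.1 Mb in the MS275 list.

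Within 5000 bp of the gene spans, the vehicle list held 48 regions and the MS275 list 42. Of the 48, 24 (50%) overlapped no region of the MS275 list, where 52.5% of all vehicle regions did so, and of the 42, 15 (35.7%) overlapped no vehicle region, where 47.2% of all MS275 regions did so. None of these unmatched regions was at a start site. Most lay in or beside the long genes Stat3 (52789 bp) and Smad1 (61034 bp), which held 20 of the 24 and 14 of the 15. The others were at Nfil3 (2), Atf3 (1) and Sox11 (1) in the vehicle list and at Jun (1) in the MS275 list. Restricted to entries with a -log10 q of at least 5, the lists held 20 and 14 regions at these genes. Of the 20, 7 (35%) overlapped no MS275 region at that threshold, where 46.1% of all 45078 vehicle regions did so, and of the 14, 0 overlapped no vehicle region, where 24.4% of all 32235 MS275 regions did so.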

How the data were processed

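RNA was measured in 6 libraries and open chromatin in 6, grouped by the treatment and assay in the sample titles. The deposited RNA files hold raw counts per gene symbol. The submitters' processing notes name the mm10 build and, among tools, STAR 2.7.0, edgeR 3.24.3 and limma 3.38.3; no source used here names the counter or how it treated strand. The 5 rows that name no gene (18.9% to 20.6% of reads) were left out. The deposited ATAC lists give, per entry, a score, a fold enrichment ratio, a -log10 p and q and a summit offset, as the authors' caller made them, with replicates combined; their depth is unknown.

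Counts were fitted on all genes with edgeR 4.0.16 in R 4.3.3 (TMM, filterByExpr, quasi-likelihood, 2-sided), with treatment as the one term. SE is the log2 fold change over the square root of F. The code was tested on simulated data. Overlapping ATAC entries were merged, and an overlap of 1 bp counted as shared. Genes were matched by symbol to RefSeq (GRCm38.p6), 14936 of 16819 tested genes (88.8%).

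Named genes were the 8 members, list genes with adjusted p under 0.05 (up to 4 of smallest p per direction with values) and the 2 genes of highest Pearson r per member (prior count 2, mean log2 CPM of at least 3). Others with values (Fos, Junb, Jund, Map3k12, Map3k13, Mapk8, Socs3, Il6, Lif, Max, Mycn, Cebpb, Gal, Gap43 and Sprr1a, and further called genes) were named after their values were seen. Members and lists were chosen with earlier results of these data known. The design text calls the triplicates biological. No 2 libraries of a group agreed within sampling noise (chi-square per degree of freedom of 6.78 or more). Alternatives were RLE scaling, no filter, the replicate block, DESeq2 1.42.0, limma voom 3.58.1, the log2 muscle sum as a covariate, each library left out, and for ATAC other windows, thresholds, overlaps and equal list sizes.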

Additional observations from a re-analysis of the deposited data

How the results depend on the processing

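The 8 members gave 0 calls under all 12 RNA alternatives. The 1849 genes called over the whole table became 33 with the muscle covariate and 261 to 2763 with 1 library left out, and the 29 called pathway genes became 1 and 5 to 36; under the covariate the log2 fold changes of 25 of the 29 stayed within 1.5 times and the SEs of the 29 were 1.23 to 1.75 times as large. The muscle sum separated the groups, so this covariate cannot be fully told apart from treatment. No called pathway gene changed direction. Values near 0 changed sign: Smad1 was 0.0020 and Myc 0.0014 under RLE scaling, Atf3 -0.0090 with limma voom, and Stat3 0.058 and Myc 0.086 with the muscle covariate, where Atf3 kept its sign but moved to 0.35. With 1 library left out, Atf3 ranged from -0.24 to 0.16, Stat3 from -0.085 to 0.016, Smad1 from -0.015 to 0.018 and Myc from -0.046 to 0.033. With the replicate number as a block, 2088 genes were called, 0 of the 8 members passed and Atf3 was -0.014. Same-numbered libraries deviated together with r of 0.02, 0.11 and -0.06, and differently numbered ones with r of -0.15 to 0.11. With the block the SE of Atf3 was 0.08 in place of 0.16, while that of Nfil3 was 0.11 in both fits. With 3 libraries per group these values cannot settle whether the numbers pair libraries. With a -log10 q of at least 5, regions at the members numbered 20 and 14 in the vehicle and MS275 lists, of which 13 and 14 overlapped the other list, so that 35% and 0% did not, against 46.1% and 24.4% of all regions at that threshold; the other ATAC alternatives stayed within 1.5 times, and all gave 8 of 8 promoters. Depth limits Sox11 most, at 171 to 304 reads per library.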
